A study of Mus musculus with 27 samples.

Results

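The comparison described here is between mouse oocytes that lost Mettl3, the methyltransferase that writes N6-methyladenosine (m6A) on mRNA, and oocytes of controls that kept it. Its members are the 7 libraries labelled as germinal vesicle (GV) stage oocytes of the Mettl3 cross, out of 27 libraries in the series, chosen by their labels and not by any measured value. The 3 knockout libraries carry the genotype Mettl3f/f Zp3-Cre+ and the 4 control libraries carry Mettl3f/f Zp3-Cre-, so all 7 share the loxP-flanked Mettl3 alleles and differ in the Cre transgene. The labels give the strain background of both groups as BDF1 X C57BL/6 X Jax#003651. The Zp3 promoter is active in growing oocytes, so Cre acts in the oocyte after the follicle has begun to grow and not in the follicle's somatic cells, and the oocyte may still carry Mettl3 products made earlier. The rest of the series holds stem cells that lack Mettl3 or Ythdf readers, later oocytes and spermatids of Ythdf2 mutants. Each GV library was made by SMART-seq2 from the oocytes collected from one mouse. The labels state neither the age of the mice nor the number of oocytes in a library.

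A GV oocyte is arrested in the first meiotic prophase with a large store of maternal mRNA, and once fully grown it makes little new RNA until the embryo activates its own genome. Meiotic maturation depends on translating some of these stored messages and removing others. In the m6A pathway a writer complex built on Mettl3 and Mettl14 marks adenosines in mRNA, YTH-domain proteins read the mark, and Ythdf2 in particular recruits the CCR4-NOT deadenylase to marked messages so that they are degraded. With this comparison the design asks which transcripts stand higher or lower in the oocyte when the writer is removed during growth.

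The oocyte label held in all libraries: the 15 oocyte markers examined, among them the zona genes, each stood at 1 CPM (counts scaled to a common library size, per 1000000 counts) or more in every library. Follicle RNA was present as well, in unequal amounts. The summed level of 27 granulosa genes was 557, 1043 and 878 CPM in the knockout libraries and 1570, 3440, 8018 and 1579 CPM in the controls, so every knockout library lay below every control, with controls 2 and 3 the highest. Of the 26 granulosa genes tested, 18 fell, against 13.4% of all tested genes, and none rose by edgeR (none at an unadjusted p under 0.05, and none by DESeq2). The number of falls was 5 without knockout library 1, 6 without knockout library 3 and 8 without control 2. With the granulosa sum as a covariate 3 fell and 3 rose, but that sum is made from these same genes. Smaller changes of these genes with it are therefore built in. Of the 5 cumulus markers in the table none was at 0 counts in all knockout libraries, but none reached 1 CPM in all 7 either, and their sum was 2.01 to 6.01 CPM in the knockout and 7.46 to 17.2 CPM in the controls. Endothelium genes summed to 24.0 to 29.8 CPM in the knockout and 39.4 to 87.1 CPM in the controls. Stroma genes summed to 14.6 to 18.6 CPM and 38.8 to 52.3 CPM, while the leukocyte sums overlapped. With the granulosa covariate the median log2 changes of tested endothelium and stroma genes were -2.06 and -1.23. In these bulk samples fewer somatic cells and less RNA per somatic cell cannot be told apart. The granulosa level and the genotype cannot be fully told apart because the groups do not overlap in it. Library totals ran from 6484397 to 18181397 counts, both extremes in the knockout group.

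Genes were therefore parted into follicle-associated genes, which belong to a somatic list or rose with the granulosa sum in a fit that also held the genotype, and all other genes. Follicle-associated genes made up 1154 of the 13551 tested, and their part in the other results below was examined by repeating the fit with the granulosa sum as a covariate and without controls 2 and 3.

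**Figure D1:**
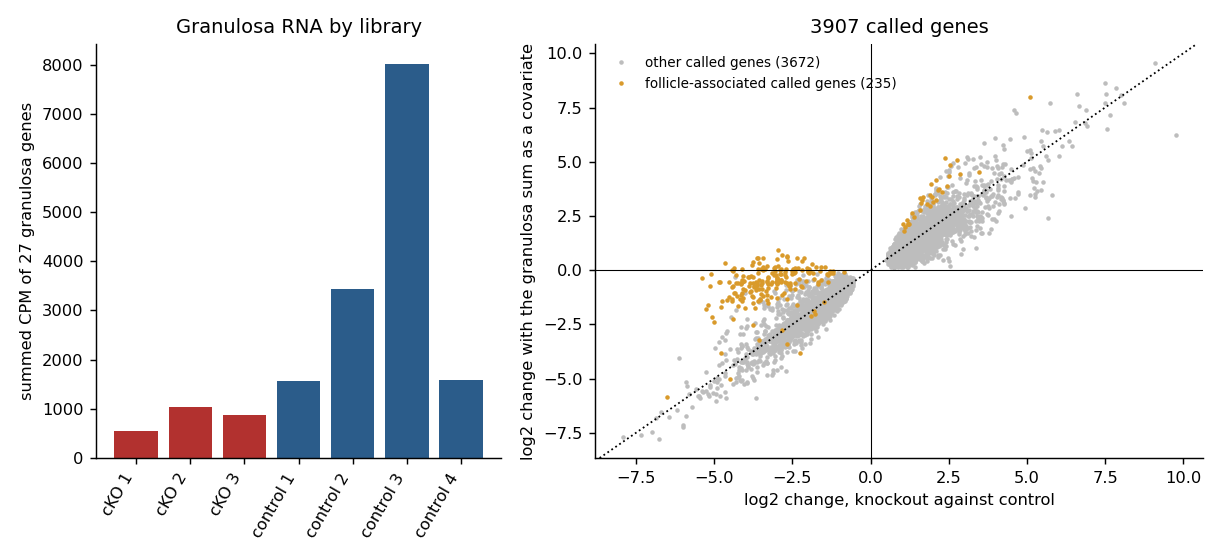
Left, summed level of 27 granulosa genes in each library (CPM, bars from 0): the knockout libraries, in red, lie between 557 and 1043 CPM and the controls, in blue, between 1570 and 8018 CPM. Right, log2 change of the 3907 called genes without and with the granulosa sum as a covariate, with the dotted line marking equal values. Most of the 235 follicle-associated genes, in yellow, fall without it and lie near 0 with it, while the other called genes keep their direction. Follicle-associated genes were defined by this covariate or by somatic lists, so their shift follows largely from the definition.

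Loss of Mettl3 in growing oocytes went with a wide change of the GV transcriptome in both directions. Among the genes that stood far higher in the knockout were the oocyte transcription factor gene Sohlh1, the meiotic chromosome genes Syce1 and Hormad1 and the heat shock gene Hspa1a. Among the oocyte genes that stood lower were Tcl1b3, Rfpl4 and Fbxw19 of oocyte-specific families, the secreted factor gene Oosp3 and the deadenylation genes Btg4 and Cnot7. At an adjusted p under 0.05 in edgeR's quasi-likelihood test, 2092 genes were higher in the knockout (15.4% of those tested) and 1815 were lower (13.4%), 3907 in all (28.8%). Past 4-fold, 641 genes were higher and 796 lower, and the median log2 change of all tested genes was 0.04. The groups did not overlap in 5327 of the tested genes (39.3%). The rule that named the largest rises and falls required such groups. Among genes that are not follicle-associated, 2059 rose and 1613 fell of 12397, against 33 and 202 of the 1154 follicle-associated ones. The count was smaller without knockout library 1 (2254 genes), knockout library 2 (2581) or control 2 (2424). With the granulosa covariate 3153 genes were called, of which 2034 were among the main calls in the same direction: 1003 higher and 1031 lower.

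**Figure D2:**
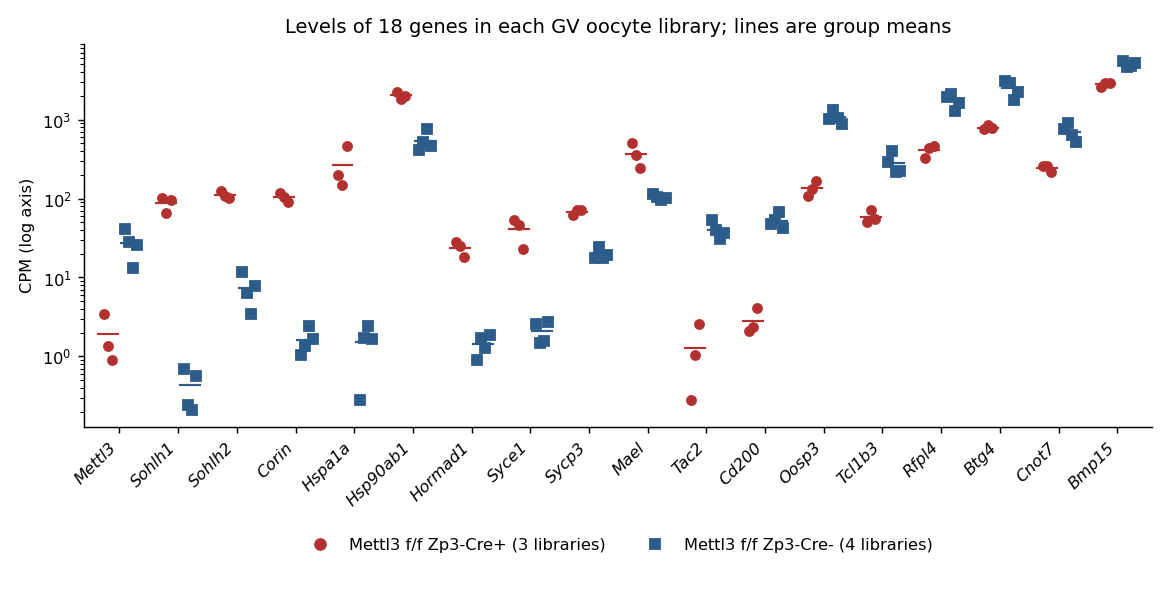
Level of 18 genes in each library (CPM, log axis), with red circles for the 3 knockout libraries, blue squares for the 4 controls and short lines for the group means. In each of the 18 genes the groups do not overlap, as in 39.3% of all tested genes. Sohlh1 is between 65.8 and 101 CPM in the knockout and at most 0.694 CPM in the controls. Btg4 is at most 844 CPM in the knockout and at least 1789.8 CPM in the controls.

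Mettl3 itself (chromosome 14, 52294841 to 52305128, minus strand, build mm10) measured 3.47, 1.35 and 0.901 CPM in the knockout libraries and 41.7, 28.1, 13.2 and 25.8 CPM in the controls. All knockout libraries were below all controls, with control 3 the lowest of its group, and the log2 change was -3.77 ± 0.57 (SE), adjusted p = 0.00182. The labels do not name the exons that the floxed allele removes, and the values count reads over the whole gene.

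None of the tested partners of Mettl3 in the writer complex was called lower. Cbll1, the E3 ligase-like subunit also called Hakai, measured 229, 233 and 288 CPM in the knockout libraries and 58, 55.1, 74.7 and 61.8 CPM in the controls, so the groups were clearly apart (log2 change 2.00 ± 0.20 SE, adjusted p = 0.00029). Rbm15, an adaptor that helps bring the complex to its RNAs, rose as well (log2 change 1.04 ± 0.22 SE, adjusted p = 0.00795), a call that was lost with the granulosa covariate (adjusted p = 0.0817) and without controls 2 and 3. Mettl14, the partner that helps hold the RNA substrate, did not pass the test, with overlapping groups at 50.8, 48.5 and 71.5 CPM in the knockout libraries and 59.9, 56.4, 43 and 72.1 CPM in the controls. For the scaffold protein genes Wtap and Zc3h13, for Rbm15b and for 1110037F02Rik (the locus of the subunit Virma), the log2 changes were 0.34, -0.21, 0.34 and -0.13, and none passed the test (adjusted p between 0.414 and 0.629). In all, 2 of 8 members were called higher (25%) and 1 lower (12.5%), against 15.4% and 13.4% of all tested genes.

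The reader genes moved in different directions. Ythdf2, the reader that directs marked mRNA to deadenylation, measured 439.6, 552 and 502 CPM in the knockout libraries and 232, 126, 146 and 211 CPM in the controls. Its groups did not overlap and the log2 change was 1.48 ± 0.24 (SE), adjusted p = 0.00253. Ythdf3 measured 144, 202 and 189 CPM in the knockout libraries and 341, 440.4, 369 and 391 CPM in the controls, all knockout values below all controls, with a log2 change of -1.11 ± 0.20 (SE), adjusted p = 0.00353. Ythdf1 rose (log2 change 1.43 ± 0.38 SE, adjusted p = 0.0204), although the call was lost without any one of the 3 knockout libraries or without control 2. The nuclear reader Ythdc1, with log2 change 0.73 ± 0.30 (SE), and the meiotic helicase reader Ythdc2, with -0.17 ± 0.30 (SE), did not pass. Of the demethylases, Alkbh5 fell from 424, 550.2, 387 and 604 CPM in the controls to 266, 242 and 225 CPM in the knockout (log2 change -1.01 ± 0.21 SE, adjusted p = 0.0074). Fto did not pass the test (log2 change 0.10 ± 0.41, SE). Rbmx was called lower (log2 change -3.27 ± 0.84 SE, adjusted p = 0.0179) but is follicle-associated, and with the granulosa covariate its log2 change was -0.37 (adjusted p = 0.559). Igf2bp2, Igf2bp3, Hnrnpc, Hnrnpa2b1, Prrc2a and Fmr1 did not pass, with log2 changes between -0.53 and 0.81. With the granulosa covariate Fmr1 and Ythdc1 were called higher, with log2 changes of 1.83 and 1.46 (adjusted p = 0.015 and 0.0165). In all, 2 of 14 tested readers and erasers were called higher (14.3%) and 3 lower (21.4%) in the main fit, against 15.4% and 13.4% of all tested genes.

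Among the genes that the naming rule allowed, the largest rise belonged to Sohlh1 (chromosome 2, 25842995 to 25847248, minus strand). It encodes a basic helix-loop-helix factor of primordial and early growing oocytes that is normally switched off as the oocyte grows. It measured 101, 65.8 and 95.7 CPM in the knockout libraries and 0.694, 0.245, 0.21 and 0.561 CPM in the controls. The controls were low, at most 0.694 CPM, and the knockout libraries lay close together, giving a log2 change of 7.56 ± 0.41 (SE), adjusted p = 4.16e-05. Its partner Sohlh2 measured 125, 108 and 103 CPM in the knockout libraries and 11.9, 6.36, 3.46 and 7.77 CPM in the controls and rose by a log2 change of 3.91 ± 0.37 (SE), adjusted p = 0.000278. Nobox, a homeobox factor of early follicles, was also called higher (log2 change 1.18 ± 0.36 SE, adjusted p = 0.0364), but its control values ran from 292 to 961 CPM and fell as the granulosa sum rose, and with that covariate its log2 change was 0.14 (adjusted p = 0.771). Figla, which activates the zona genes, was called higher by 0.93 on the log2 scale (adjusted p = 0.0475), a call that 12 of the 16 alternative settings lost. The Obox homeobox genes moved the other way: Obox1, Obox2 and Obox5 fell by log2 changes of -1.27, -1.25 and -1.12, each with all knockout libraries below all controls. These 3 are near-identical copies, so reads may have been divided among them. Of 15 tested oocyte transcription factors 4 were called higher (26.7%) and 3 lower (20%), against 15.4% and 13.4% of all tested genes. The rises were 2 without any one knockout library, control 2 or control 4, and the falls were 5 without knockout library 3.

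The promoter of Sohlh1, from 250 bases before to 50 bases after the start site (RefSeq, GRCm38.p6, chr2:25847199-25847498, minus strand), is shown with the promoters of 2 meiotic genes that rose with it, Hormad1 (chr3:95559427-95559726, plus strand) and Sycp3 (chr10:88459337-88459636, plus strand). Capitals mark the E-box CACGTG, the letters bound by many helix-loop-helix factors, searched on both strands, where it reads the same.
Sohlh1: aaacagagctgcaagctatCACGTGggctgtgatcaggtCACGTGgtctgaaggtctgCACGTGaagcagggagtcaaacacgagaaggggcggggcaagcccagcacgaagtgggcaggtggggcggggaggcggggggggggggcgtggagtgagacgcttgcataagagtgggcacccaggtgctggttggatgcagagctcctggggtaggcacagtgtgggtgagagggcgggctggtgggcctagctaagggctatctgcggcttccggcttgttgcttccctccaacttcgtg
Hormad1: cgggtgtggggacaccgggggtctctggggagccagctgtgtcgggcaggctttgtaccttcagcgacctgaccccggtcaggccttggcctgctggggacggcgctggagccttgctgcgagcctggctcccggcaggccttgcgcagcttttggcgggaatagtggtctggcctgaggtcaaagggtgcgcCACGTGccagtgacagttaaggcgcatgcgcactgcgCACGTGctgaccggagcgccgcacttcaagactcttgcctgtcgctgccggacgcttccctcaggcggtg
Sycp3: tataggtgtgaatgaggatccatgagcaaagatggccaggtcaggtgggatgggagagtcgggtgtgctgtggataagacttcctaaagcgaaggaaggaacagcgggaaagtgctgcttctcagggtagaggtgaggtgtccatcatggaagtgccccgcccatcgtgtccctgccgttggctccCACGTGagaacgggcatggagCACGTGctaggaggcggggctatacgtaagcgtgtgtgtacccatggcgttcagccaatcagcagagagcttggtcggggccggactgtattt
The E-box begins 231, 211 and 192 bases before the start in Sohlh1, 57 and 20 bases before it in Hormad1, and 64 and 43 bases before it in Sycp3. It occurred in 10.0% of the 10392 tested genes' promoters in the table, in 12.8% of those of genes called higher and in 8.71% of those of genes called lower. Among the meiotic prophase genes it occurred in 5 of the 9 called higher and in 1 of the 14 others with a promoter. Among the piRNA pathway and germ granule genes it occurred in 2 of the 4 called higher and in 5 of the 13 others. The promoters of Syce1, Smc1b and Corin, which also rose, held none, and those of Mael and Sycp1 held 1 each. The motif search describes letters and not binding, which was not measured.

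The other large rises came from genes with diverse roles. Corin, a membrane serine protease gene known from natriuretic peptide processing, measured 119, 104 and 90.9 CPM in the knockout libraries and 1.04, 1.35, 2.41 and 1.68 CPM in the controls, groups far apart and tight within (log2 change 6.02 ± 0.33 SE, adjusted p = 4.16e-05). D1Pas1, an intronless testis DEAD-box helicase gene, measured 71.7, 47.1 and 26.6 CPM in the knockout libraries and 0.903, 1.1, 0.735 and 1.03 CPM in the controls (log2 change 5.68 ± 0.41 SE, adjusted p = 0.000169). Shisa2, an antagonist of Wnt and Fgf receptor maturation, and Ptgds, a prostaglandin D2 synthase, rose by log2 changes of 5.65 ± 0.41 (SE) and 5.61 ± 0.46 (SE). Zfp707, a zinc finger gene, measured 802, 295 and 495 CPM in the knockout libraries and 26, 5.87, 6.19 and 22.8 CPM in the controls, and its knockout values were the more scattered ones (log2 change 5.11 ± 0.61 SE, adjusted p = 0.000679). Mgl2, a lectin gene of macrophages, Ly6a, which encodes the surface antigen Sca-1, and the Polycomb reader gene Cbx8 rose by log2 changes of 5.17, 4.89 and 4.49. The metallothionein gene Mt1, whose product binds zinc and copper, measured 725, 704 and 983 CPM in the knockout libraries and 6.6, 26.8, 55.6 and 5.8 CPM in the controls. All knockout libraries were above all controls (log2 change 5.09 ± 0.74 SE, adjusted p = 0.00162), and the control values rose with the granulosa sum, so Mt1 counts as follicle-associated although its change with the covariate was larger, at 7.98.

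Most heat shock and chaperone genes rose. These genes are driven by heat shock factors and their products refold or hold unfolded proteins. Of 23 tested, 15 were higher (65.2%, against 15.4% of all tested genes) and 1 was lower, with a median log2 change of 0.84 against 0.04. Hspa1a, the stress-inducible Hsp70 gene (chromosome 17, 34969190 to 34972156, minus strand), measured 197, 147 and 463 CPM in the knockout libraries and 0.278, 1.71, 2.41 and 1.68 CPM in the controls. The groups did not overlap and knockout library 3 was the highest (log2 change 7.51 ± 0.65 SE, adjusted p = 0.000211). Its neighbour Hspa1b measured 42.5, 75.3 and 628 CPM in the knockout libraries and 0.625, 4.89, 9.23 and 4.3 CPM in the controls, and without knockout library 3 its log2 change was 3.55 instead of 5.72. The coding parts of these 2 genes are nearly identical, so their reads may have been divided between them. 

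The other heat shock genes called higher rose by less than Hspa1a and Hspa1b. Hsp90ab1, the constitutive cytosolic Hsp90, measured 2268, 1807 and 2017 CPM in the knockout libraries and 409, 517, 752 and 469.6 CPM in the controls, with a tight knockout group and a log2 change of 1.92 ± 0.23 (SE), adjusted p = 0.000676. Hspb1, a small heat shock protein gene, measured 34, 21.7 and 30.6 CPM in the knockout libraries and 4.24, 4.28, 3.25 and 4.02 CPM in the controls (log2 change 2.86 ± 0.30 SE, adjusted p = 0.000389). Dnajb1, the Hsp40 partner of Hsp70, and the heat shock factor gene Hsf2 rose by log2 changes of 1.69 ± 0.25 (SE) and 1.67 ± 0.27 (SE). Hspd1 and Hspe1, the mitochondrial chaperonin pair, rose by 0.87 and 1.02 on the log2 scale, both calls being lost without any one of the knockout libraries. Hsf1, the main stress-responsive heat shock factor, and Hsp90aa1, the inducible Hsp90 gene, had log2 changes of 0.84 (adjusted p = 0.0615) and 0.30 (adjusted p = 0.316). Dnajb4 was the 1 member that fell, from 516, 593, 331 and 412 CPM to 161, 163 and 152 CPM (log2 change -1.55 ± 0.23 SE, adjusted p = 0.00174). The number of members called higher was 10 without controls 2 and 3, 11 with the granulosa covariate, and 9 without knockout library 1 or knockout library 2.

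The promoters of 2 of the stress genes called higher are shown with the heat shock element half-site pair GAANNTTC in capitals, searched on both strands, where it reads the same. They are those of Hspa1a (RefSeq, GRCm38.p6, chr17:34972107-34972406, minus strand) and Hspb1 (chr5:135887669-135887968, plus strand).
Hspa1a: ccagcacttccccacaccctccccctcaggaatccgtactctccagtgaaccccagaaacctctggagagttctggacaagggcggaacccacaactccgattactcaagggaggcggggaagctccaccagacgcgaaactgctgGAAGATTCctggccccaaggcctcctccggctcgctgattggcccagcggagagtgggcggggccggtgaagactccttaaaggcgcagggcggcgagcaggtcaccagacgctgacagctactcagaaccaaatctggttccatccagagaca
Hspb1: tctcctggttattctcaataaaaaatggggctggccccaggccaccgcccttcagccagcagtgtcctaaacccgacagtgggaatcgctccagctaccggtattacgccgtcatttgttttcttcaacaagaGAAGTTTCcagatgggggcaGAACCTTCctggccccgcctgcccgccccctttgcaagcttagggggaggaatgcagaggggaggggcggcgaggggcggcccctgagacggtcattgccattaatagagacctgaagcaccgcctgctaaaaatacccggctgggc
The element begins 104 bases before the start in Hspa1a, and 117 and 97 bases before it in Hspb1. It occurred in 6 of the 12 promoters of heat shock genes called higher, in 2 of the 6 others of the list, and in 5.94% of all tested genes' promoters.

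Genes of the meiotic prophase chromosome, whose products build the axis and the synaptonemal complex between paired chromosomes and carry out recombination, were called in both directions. Of 24 tested, 9 rose (37.5%, against 15.4% of all tested genes) and 6 fell (25%, against 13.4%), with a median log2 change of 0.68. Syce1, a central element protein gene (chromosome 7, 140777229 to 140787852, minus strand), measured 53.5, 46.5 and 23 CPM in the knockout libraries and 2.57, 1.47, 1.57 and 2.71 CPM in the controls, groups not overlapping (log2 change 4.28 ± 0.40 SE, adjusted p = 0.000247). Hormad1, which marks unsynapsed axes (chromosome 3, 95559677 to 95587671, plus strand), measured 28.2, 25.1 and 18.3 CPM in the knockout libraries and 0.903, 1.71, 1.26 and 1.87 CPM in the controls (log2 change 4.06 ± 0.38 SE, adjusted p = 0.000247). Both were at low levels in all controls. Sycp1, the transverse filament gene, rose by 2.17 ± 0.28 (SE), adjusted p = 0.000845. Sycp3, the axis gene whose promoter is printed above, measured 61, 70.7 and 71.9 CPM in the knockout libraries and 17.7, 24, 17.6 and 19.4 CPM in the controls and rose by 1.79 ± 0.22 (SE), adjusted p = 0.000723. Smc1b, the meiotic cohesin subunit gene, rose by 1.64 ± 0.22 (SE), adjusted p = 0.00115.

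The axis gene Sycp2 went the other way, from 111, 136, 138 and 139.5 CPM to 33, 68.5 and 74.6 CPM (log2 change -1.16 ± 0.29 SE, adjusted p = 0.0156), a call lost with the granulosa covariate (adjusted p = 0.117). Psmc3ip, also called Hop2, which helps the recombinase Dmc1 invade a homologous strand, measured 19.5, 24.4 and 22.8 CPM in the knockout libraries and 76.1, 47.8, 40.2 and 55 CPM in the controls (log2 change -1.30 ± 0.27 SE, adjusted p = 0.00741). Dmc1 itself was low everywhere, at 0, 0.0643 and 0.15 CPM in the knockout libraries and 5.28, 0.612, 2.94 and 6.36 CPM in the controls, and the fall rests on few counts in the knockout. Mei4, needed for double-strand breaks, and the crossover gene Msh4 fell by log2 changes of -0.95 and -1.09, and Hormad2 by -2.38. The calls of Msh4 and Hormad2 were each lost without 5 of the 7 libraries taken in turn, and over the same repeats the count of rises ran from 5 (without knockout library 2 or control 2) to 11 and that of falls from 3 (without control 1 or control 4) to 6.

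Genes of the piRNA pathway and germ granules, which silence transposons with small RNAs, had 6 of 20 members higher (30%, against 15.4% of all tested genes) and 3 lower (15%, near the 13.4% of all tested genes). Mael, a piRNA biogenesis factor gene, measured 508, 361 and 243 CPM in the knockout libraries and 115, 103, 95.1 and 102 CPM in the controls, all knockout values above all controls (log2 change 1.84 ± 0.25 SE, adjusted p = 0.00111). Piwil2, the Argonaute-like protein gene, rose by 2.64 ± 0.47 (SE), adjusted p = 0.00351, and the helicase gene Mov10l1 by 2.41 ± 0.43 (SE), adjusted p = 0.00357. The Tudor-domain genes Tdrd6 and Tdrd7 rose by log2 changes of 2.92 and 1.86. Ddx25, a DEAD-box helicase gene, measured 3.58, 6.94 and 9.46 CPM in the knockout libraries and 75.1, 37.1, 29.8 and 59.6 CPM in the controls, clearly lower in the knockout (log2 change -2.94 ± 0.45 SE, adjusted p = 0.00194). Tdrd12 fell too, by a log2 change of -1.31 ± 0.27 (SE), so the Tudor-domain genes did not move in a single direction.

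**Figure D3:**
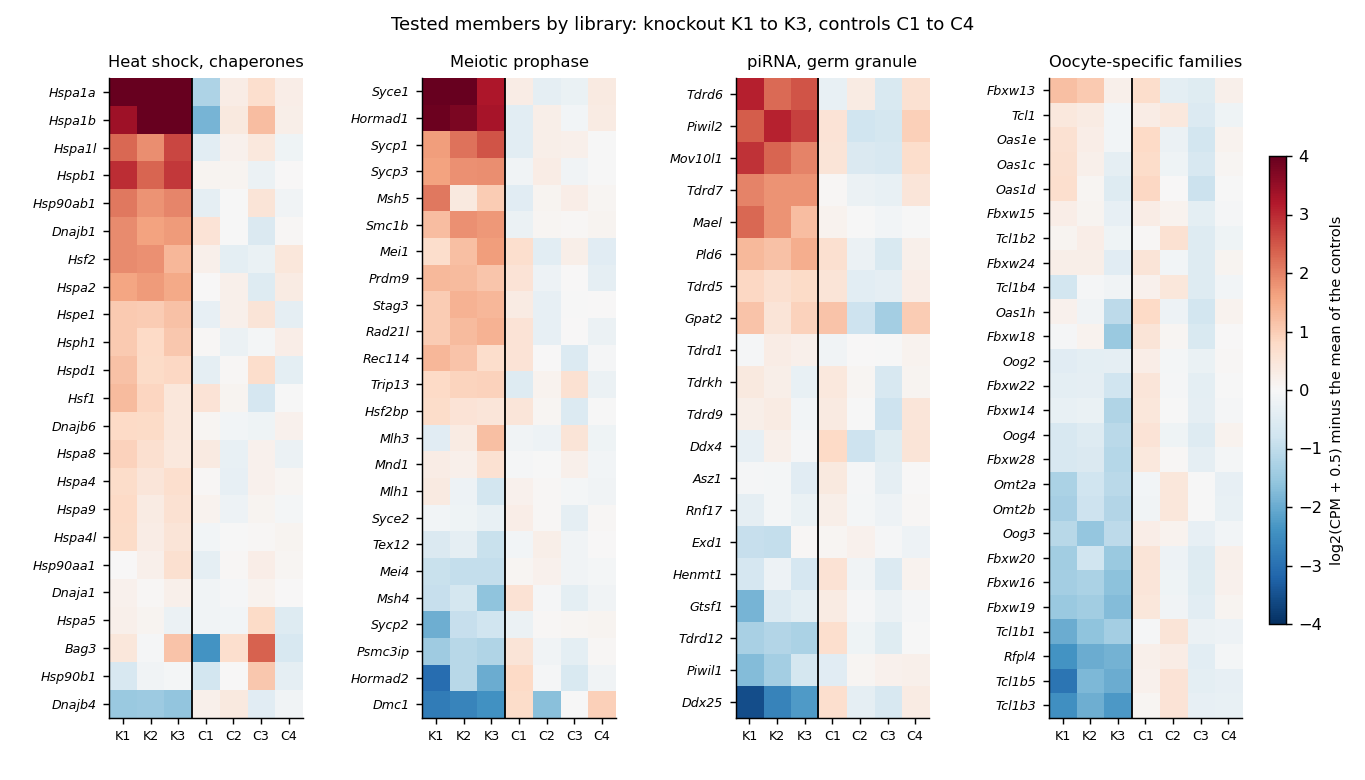
Tested members of 4 gene lists in each library, as log2(CPM + 0.5) minus the mean of the 4 controls, from blue (lower) to red (higher), with the scale ending at -4 and 4. Knockout libraries K1 to K3 stand left of the black line and controls C1 to C4 right of it; members are ordered by their log2 change, and 15 of 23 heat shock genes were called higher while 11 of 26 members of the oocyte-specific families were called lower.

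Among gene families that are expressed almost only in oocytes, the calls were all falls. Of 26 tested members of the Tcl1b, Oog, Rfpl4, Omt2, Oas1 and Fbxw families, none rose by edgeR (1 at an unadjusted p under 0.05, and none by DESeq2) and 11 fell (42.3%, against 13.4% of all tested genes), with a median log2 change of -0.54. Tcl1b3, from a cluster of oocyte and early embryo genes, measured 49.9, 71 and 54.8 CPM in the knockout libraries and 287, 401, 219.8 and 223 CPM in the controls, groups not overlapping (log2 change -2.27 ± 0.28 SE, adjusted p = 0.000706). Tcl1b1 fell by a log2 change of -1.66 ± 0.26 (SE). Rfpl4, a RING-finger gene of oocytes, measured 326, 434 and 464 CPM in the knockout libraries and 1955, 2110.2, 1284 and 1611 CPM in the controls, a fall in every knockout library (log2 change -2.09 ± 0.24 SE, adjusted p = 0.000575). Oog3 and Fbxw19 fell by log2 changes of -1.24 and -1.56. Members of these families have close copies, so single-gene values in Tcl1b, Omt2 and Fbxw are uncertain. The count of falls was 14 without controls 2 and 3 and 12 with the granulosa covariate, and 10 to 14 when single libraries were left out. With the replicate block or without control 1, 1 member was called higher.

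Genes of secreted factors and the zona were called in both directions. Oosp3, an oocyte secreted protein gene, measured 108, 132 and 167 CPM in the knockout libraries and 1026, 1318, 1061 and 888 CPM in the controls and had one of the clearest falls among abundant oocyte genes (log2 change -2.98 ± 0.24 SE, adjusted p = 0.000175). Bmp15, the oocyte growth factor that acts on granulosa cells, measured 2601, 2924 and 2924 CPM in the knockout libraries and 5469.6, 4657, 4770.2 and 5175 CPM in the controls, a smaller fall with no overlap (log2 change -0.83 ± 0.16 SE, adjusted p = 0.00546). Fgf8, which acts on cumulus cells, fell by -2.27 ± 0.50 (SE), adjusted p = 0.00907. The sperm-receptor gene Zp3 was called higher (log2 change 1.11 ± 0.34 SE, adjusted p = 0.0356), but its groups overlapped and the call was lost with the granulosa covariate (log2 change 0.30) and without controls 2 and 3 (0.58). Among 11 genes of this group 1 was higher (9.09%) and 4 were lower (36.4%), against 15.4% and 13.4% of all tested genes.

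Among 25 subcortical maternal complex and maternal-effect genes, 3 rose (12%) and 7 fell (28%), against 15.4% and 13.4% of all tested genes. The rises were 1 without knockout library 2 or control 2 and 5 without control 1. Dppa3, also called Stella, which protects the maternal genome's methylation after fertilisation, measured 5806, 5776 and 3949 CPM in the knockout libraries and 2304, 2531, 2062 and 2001 CPM in the controls, higher in every knockout library (log2 change 1.22 ± 0.20 SE, adjusted p = 0.00224). Nlrp5, also called Mater, was called higher (log2 change 1.33 ± 0.37 SE, adjusted p = 0.0238), but was lost without controls 2 and 3 (0.72) and with the granulosa covariate (0.34). Nlrp9b and Nlrp4f fell by log2 changes of -1.54 and -0.80, and Bcl2l10, an oocyte Bcl2-family gene, by -0.72, a call lost without control 2. Nlrp9b has close copies and its value is uncertain.

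The machinery that shortens poly(A) tails at maturation was lower at its oocyte-specific adaptor. Btg4, which bridges the CCR4-NOT deadenylase to maternal mRNA, measured 759, 844 and 781 CPM in the knockout libraries and 3061, 2925, 1789.8 and 2216 CPM in the controls. Every knockout library was below every control (log2 change -1.65 ± 0.23 SE, adjusted p = 0.00116). Cnot7, a catalytic deadenylase subunit gene, measured 260.3, 260.1 and 219.6 CPM in the knockout libraries and 756, 894, 638 and 525 CPM in the controls and fell by -1.51 ± 0.22 (SE), adjusted p = 0.00165. Its paralogue Cnot8 fell by -0.66 ± 0.22 (SE), adjusted p = 0.0496, a call lost without any of 5 single libraries and with no filter on low counts, and Cnot6l, the other class of catalytic subunit, had a log2 change of -0.96 (adjusted p = 0.0588). Tob1, an adaptor of the same deadenylase, rose by 1.47 ± 0.26 (SE), adjusted p = 0.00352. Over the list, 1 of 19 tested genes rose and 3 fell (15.8%, near the 13.4% of all tested genes). Of 19 tested genes of decapping and 5′ to 3′ decay 3 rose and 2 fell, with a median log2 change of 0.36. Dcp1a, a decapping activator gene, fell by -1.13 ± 0.19 (SE), adjusted p = 0.00306, and Dcp2, the decapping enzyme gene, by -1.20, a call lost with the granulosa covariate (log2 change -0.48). Lsm1 and Lsm2, which encode subunits of the Lsm rings that bind RNA ends, and Nudt16, a decapping hydrolase gene, rose by log2 changes of 1.13, 0.78 and 1.35 (adjusted p = 0.0142, 0.0123 and 0.0303). No member of the list was called higher by edgeR without knockout library 1 or knockout library 2, and 1 was called higher without control 2 and 5 without control 3.

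Among genes with an average log2 CPM of 4 or higher, the largest falls belonged mostly to follicle genes. Below that level, the meiotic gene Dmc1 had a log2 change of -5.91 ± 1.13 (SE). The rule that took the 12 largest falls gave 11 follicle-associated genes, among them Ldha, Npr2, Inhbb, Fst and Igf1, all known from granulosa cells or follicle growth. Inhbb, for example, measured 1.62, 41.4 and 5.26 CPM in the knockout libraries and 47.3, 404, 1719 and 80.7 CPM in the controls. These values ran in step with the granulosa sum within both groups, and the log2 change of -5.11 became -0.18 with that covariate. Follicle-associated genes were picked by somatic lists or by that sum, so such a shift is largely built in. The remaining gene was Tac2, the neurokinin B precursor gene (chromosome 10, 127724478 to 127731768, plus strand), which measured 0.279, 1.03 and 2.55 CPM in the knockout libraries and 54.2, 39.8, 30.4 and 36.7 CPM in the controls. Its controls lay close together despite their unequal granulosa RNA (log2 change -5.13 ± 0.64 SE, adjusted p = 0.000778). The same rule with follicle-associated genes taken out was chosen after the values were seen. It added Thbs1, with 0.503, 22.8 and 2.10 CPM in the knockout libraries and 26.4, 173, 459 and 36.1 CPM in the controls. These values follow the granulosa sum, and with that covariate the log2 change of -4.32 became -0.30 (adjusted p = 0.867). The genes not counted as follicle-associated thus still hold some that follow follicle RNA. Also added was Cd200, an immunoregulatory membrane protein gene. It measured 2.07, 2.38 and 4.06 CPM in the knockout libraries and 47.8, 52.9, 67 and 42.6 CPM in the controls (log2 change -4.25 ± 0.35 SE, adjusted p = 0.000178). Cmtm8, a membrane protein gene, the glucose transporter gene Slc2a12 and the phosphatidylserine receptor gene Timd4 fell by log2 changes of -4.27, -4.24 and -4.06. Their groups did not overlap, as the rule required.

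Several chromatin regulator genes were lower in the knockout. Of 27 histone modifier genes 2 rose (7.41%) and 6 fell (22.2%), against 15.4% and 13.4% of all tested genes. The rises were 1 without knockout library 2, knockout library 3 or control 2, and the falls were 4 without knockout library 1. The H3K4 methyltransferase genes Kmt2c and Kmt2d fell by -1.54 ± 0.24 (SE), adjusted p = 0.0019 and by -1.47 ± 0.37 (SE), adjusted p = 0.0168, the second call being lost without knockout library 1. Kdm6a, an H3K27 demethylase gene, measured 76.4, 99.1 and 108 CPM in the knockout libraries and 196, 307, 251 and 238 CPM in the controls, clearly lower in the knockout (log2 change -1.39 ± 0.23 SE, adjusted p = 0.00238). Eed, a core Polycomb subunit gene, fell by -1.12 ± 0.19 (SE), adjusted p = 0.00297, and the histone deacetylase gene Hdac1 rose by 1.37 ± 0.27 (SE), adjusted p = 0.00559. Of 14 DNA methylation genes 2 rose (14.3%) and 3 fell (21.4%), against 15.4% and 13.4% of all tested genes. The falls were 1 without knockout library 2 and 4 without knockout library 3 or control 1. Dnmt3l, the cofactor that the oocyte needs to methylate its genome, fell from 126, 91.9, 65.8 and 99 CPM to 47.7, 41.8 and 54.1 CPM (adjusted p = 0.0168), a call lost without knockout library 2, and Dnmt3a, the enzyme it activates, by -0.70 ± 0.22 (SE), adjusted p = 0.0367. The second call was lost without knockout library 1, knockout library 2, control 2 or control 4. Dnmt3b rose from 14, 15.4, 16.6 and 14.8 CPM to 26, 33.6 and 47 CPM (log2 change 1.22 ± 0.27 SE, adjusted p = 0.00869). The demethylation enzyme gene Tet2 rose by 1.49, a call lost without any of 4 single libraries. Tet1 had a log2 change of -2.85 ± 0.63 (SE).

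Genes of meiotic arrest and cell death gave mixed counts. Of 30 maturation kinase, cyclin and arrest genes 3 rose and 3 fell (10% each, against 15.4% and 13.4% of all tested genes). The rises were 6 without control 1, the falls were 7 without control 3, and DESeq2 called 6 lower. Wee1, the inhibitory Cdk1 kinase, rose by 1.57 ± 0.28 (SE), adjusted p = 0.00334, and its oocyte-specific relative Wee2 fell by -0.59 ± 0.20 (SE), adjusted p = 0.0466, a call lost without each library other than control 3. The phosphatase gene Cdc25b, which opposes them, rose by 0.96 ± 0.20 (SE), adjusted p = 0.0076, a call lost with the granulosa covariate. Fbxo43, the metaphase arrest factor also called Emi2, and the meiotic Aurora kinase gene Aurkc fell by log2 changes of -1.01 and -1.16. Of 22 p53 target and cell death genes 8 were higher (36.4%, against 15.4% of all tested genes) and none lower by edgeR at the same threshold. There was 1 lower at an unadjusted p under 0.05, and 1 by DESeq2. Pmaip1, also called Noxa, measured 22.2, 6.17 and 6.46 CPM in the knockout libraries and 1.18, 0.367, 1.26 and 0.561 CPM in the controls, with knockout library 1 the highest (log2 change 3.75 ± 0.63 SE, adjusted p = 0.00282). Ccng1 and Zmat3 rose by 1.40 and 1.49, and the classic p53 targets Cdkn1a and Mdm2 had log2 changes of 0.29 (adjusted p = 0.704) and 0.21 (adjusted p = 0.411). The number of members called higher was 1 without knockout library 1, 3 without knockout library 2, control 2 or control 4, and 5 without knockout library 3.

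Counts in lists of splicing, ribosomal and respiratory genes differed between the fits without and with the granulosa covariate. None of 14 tested SR splicing factor genes passed in edgeR's test, against 28.8% of all tested genes. None had an unadjusted p under 0.05, and none was called by DESeq2. With the granulosa covariate 9 of the 14 were called higher and the median log2 change went from 0.20 to 1.48, and 4 were called higher without controls 2 and 3, 2 without control 3 alone and 2 with the replicate block. Of these 14 genes 9 are follicle-associated. Of 78 cytosolic ribosomal protein genes, 63 of them follicle-associated, 3 rose (3.85%, against 15.4% of all tested genes) and none fell by edgeR. There were 2 lower at an unadjusted p under 0.05, and 2 by DESeq2. The median log2 change was -0.25. With the granulosa covariate 48 were called higher and the median was 1.13. Without controls 2 and 3 the median was 0.40 with 6 called higher, and without control 3 alone it was 0.15 with 5 called higher. The replicate block called 10 lower. Follicle-associated genes were picked by somatic lists or by a rise with the granulosa sum. That sum was lower in every knockout library than in every control, so an upward shift of such genes with the covariate is largely built in.

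Of 77 nuclear genes of the respiratory chain 8 rose (10.4%, against 15.4% of all tested genes) and none fell by edgeR. There was 1 lower at an unadjusted p under 0.05, and 2 by DESeq2. The rises were 25 with the granulosa covariate, 15 without control 3, 5 without control 2 and 3 without knockout library 2. Of these 77 genes 20 are follicle-associated, for which an upward shift with the covariate is largely built in. Of 76 mitochondrial ribosomal protein genes 16 rose (21.1%, against 15.4% of all tested genes) and 4 fell, with a median log2 change of 0.36, and 8 rose without knockout library 1.

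**Figure D4:**
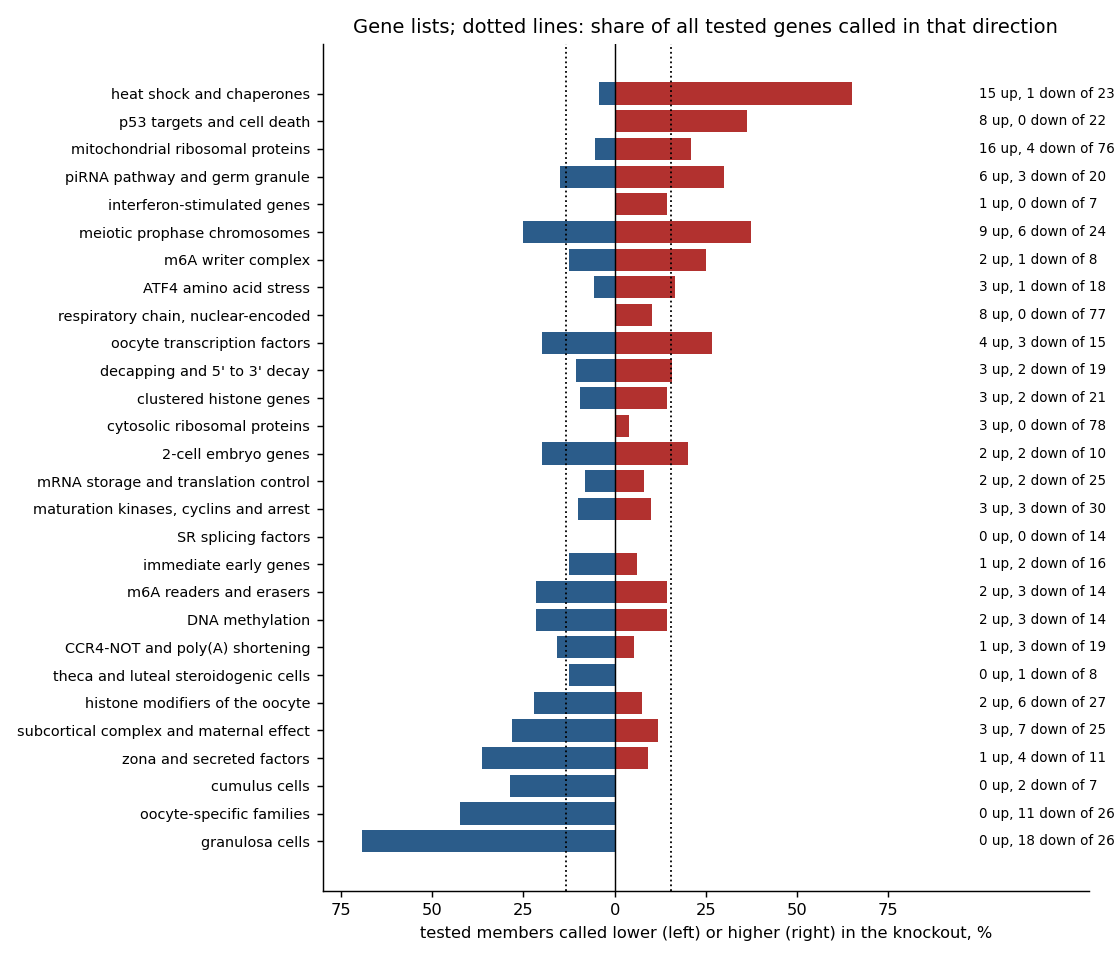
Share of the tested members of each list called lower (blue, left) or higher (red, right) in the knockout, in percent, with the counts at the right and dotted lines at the shares of all 13551 tested genes, 13.4% lower and 15.4% higher. Heat shock genes (15 of 23 higher) and granulosa genes (18 of 26 lower) lie at the ends, and lists with at least 7 tested members are drawn.

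Transcripts called higher and lower were described by their build, meaning exon number, base composition and m6A consensus letters. Of the tested genes, 12494 (92.2%) had a coding transcript in GENCODE M21 (GRCm38), and for each the transcript with the longest coding sequence was used. The median number of exons was 7 for genes called higher, 10 for genes called lower and 9 for all tested. Among 259 genes whose coding transcript has a single exon, 24.3% were higher and 5.79% lower. Among 4289 genes with 13 or more exons, 10.6% were higher and 14.0% lower. Median transcript GC content was 51.6%, 47.5% and 49.9% for higher, lower and all tested genes. In the group with the highest GC content, out of 5 equal groups, 22.1% were higher and 5.60% lower, and in the group with the lowest 10.6% and 18.6%. At or below the median GC content, genes with 1 to 3 exons were called higher in 21.5% of 683 and those with more exons in 11.8% of 5564, and above it the shares were 26.7% of 862 and 17.3% of 5385. The DRACH letters of the m6A consensus occurred at a median of 19.8 per kilobase in transcripts called higher, 20.8 in those called lower and 20.3 in all tested. These are descriptions of the called genes, with no test. With the library-specific GC trend taken out of the fit, 3792 genes were called, 1834 higher and 1958 lower, and 1669 of the higher and 1674 of the lower main calls were among them. Summed levels were also taken over sets of genes with few or no introns, and they did not all go the same way. The 81 processed pseudogenes present summed to 1275 to 1506 CPM in the knockout and 1323 to 1566 CPM in the controls. Olfactory receptor genes (130 in the table), whose coding sequence usually lies in a single exon, summed to 602 to 680 CPM in the knockout and 368 to 513 CPM in the controls. The sum of 406 single-exon protein-coding genes was 10217 to 13139 CPM and 7635 to 9380 CPM. Both sums were higher in the knockout with no overlap, but single genes did not all follow. Of the 34 receptor genes tested 7 were higher and 6 lower, against 15.4% and 13.4% of all tested genes. Their median log2 change was -0.82. The single-exon set holds Hspa1a, Hspa1b and D1Pas1, which are among the largest rises. The part of genomic DNA in these values was not tested.

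**Figure D5:**
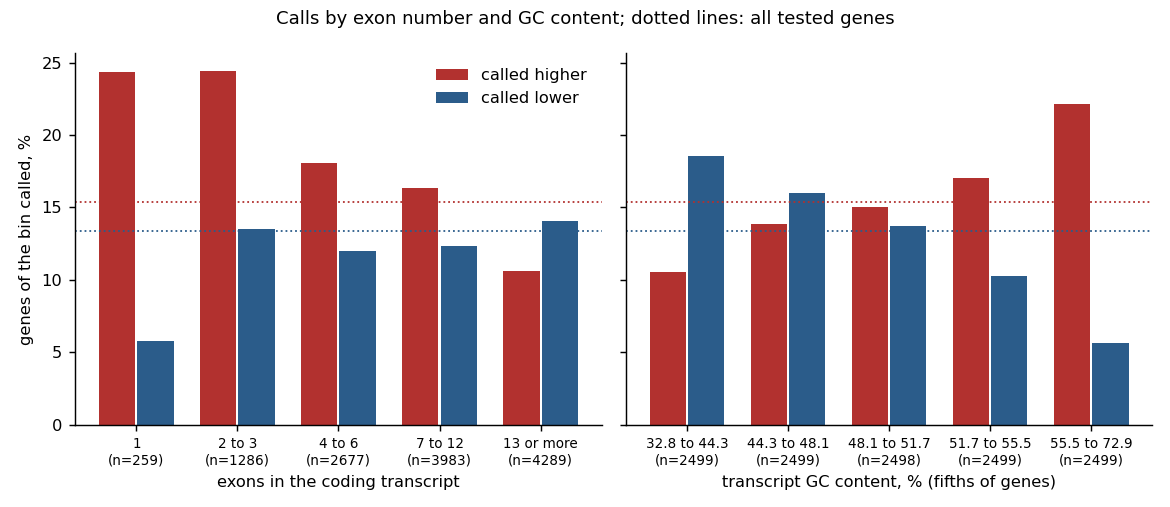
Share of tested genes called higher (red) or lower (blue), in percent, by the number of exons of the coding transcript (left) and by transcript GC content in 5 equal groups of genes (right), with the number of genes under each pair of bars and dotted lines at the shares of all tested genes. Calls of higher genes run from 24.3% at 1 exon to 10.6% at 13 or more, and from 10.6% in the lowest to 22.1% in the highest GC group.

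The other experiments of the series give the same genes' values in other cells. In Mettl3 knockout stem cells, a separate cell type fitted separately, Mettl3 had a log2 change of -3.07 and Ythdf2 of 1.30, beside -3.77 and 1.48 in GV oocytes. Of the heat shock genes that rose in GV oocytes, Hspa1a and Hspb1 had log2 changes of -2.73 ± 0.99 (SE) and -1.49 ± 0.15 (SE) there, and Hspa1a was low, at 5.38 CPM in the wild type and 0.586 CPM in the knockout. Hspa1b, Hsp90ab1, Hsf2 and Hspd1 had log2 changes of 0.16, 0.07, 0.56 and 0.52. Of the germ-cell genes that rose in GV oocytes, Syce1 had a log2 change of 1.29 in the stem cells, Hormad1 one of 0.07, and Sycp3, D1Pas1 and Sohlh2 had changes of -0.87, -0.80 and -0.74. Whether these changes differ between the cell types was not tested, because the libraries were made and counted separately.

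In the Ythdf2 heterozygous oocytes past the GV stage, the genes that were higher in the Mettl3 knockout stood at unequal levels. Sohlh1 averaged 0.017 CPM and Syce1 0.161 CPM, while Hormad1 averaged 50.6 CPM (2.39 to 78 CPM over the libraries), Smc1b 38.1 CPM and Mael 24.5 CPM. In Ythdf2 knockout oocytes of that stage, with few libraries per group, the Ythdf2 transcript itself had a log2 change of 0.84 ± 0.40 (SE). D1Pas1, like Syce1, was near the floor in the heterozygous oocytes, at 0.094 CPM. Syce1 had a log2 change of 3.40 ± 0.96 (SE), Sycp3 one of 1.61 ± 0.47 (SE) and D1Pas1 one of 4.26 ± 1.17 (SE). Hormad1 had one of -1.78 ± 1.24 (SE), Cbx8 one of -0.65 ± 1.08 (SE), Smc1b one of -0.15 ± 0.53 (SE) and Mael one of -0.07 ± 0.84 (SE). Oosp3, which fell in the Mettl3 knockout, stood at 2029 CPM in the heterozygous oocytes and had a log2 change of 0.05 ± 0.37 (SE). These values stand beside those of the GV oocytes with no test of their difference.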

How the data were processed

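RNA was sequenced from 7 GV oocyte libraries made by SMART-seq2. The deposited values used are raw read counts per gene symbol for 16598 genes; the submitters' processing notes name CASAVA 1.8.2, cutadapt, STAR 2.4.2a, DESeq2 and mm10, with no roles, and the table's own fold changes and p-values were not used. No gene in the table has fewer than 6 counts in its highest library. Counts were fitted with edgeR 4.0.16 (R 4.3.3, limma 3.58.1): TMM scaling, filterByExpr (13551 genes kept), robust quasi-likelihood test of genotype, Benjamini-Hochberg adjustment over all genes kept. Levels are CPM after TMM scaling, and log2 changes are knockout minus control. Counting strand is not given in the sources used here, so overlapping antisense genes cannot be told apart. Depth was 6484397 to 18181397 counts per library, without molecular identifiers. P-values measure the spread between these libraries.

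Alternatives were RLE scaling, 2 filters, DESeq2 1.42.0, a replicate block, the granulosa covariate, 2 controls or single libraries left out, somatic genes out of the scaling, and GC centring, which was added after seeing the data. On counts simulated for these 7 libraries (13551 genes), the main test found 89 of 100 genes changed 4-fold and 16 of 100 changed 2-fold. It made 10 false calls. Each gene was drawn independently, with no granulosa difference between the libraries, so these false calls do not cover such a difference. Only 200 genes were changed there, far fewer than the 3907 called in the data. The adjusted threshold was therefore stricter in the simulation, and its share of 2-fold changes found may be too low for these data. The gene lists and the comparison were chosen with earlier results of these data known. Named genes are Mettl3, all m6A genes, the 12 largest called rises and the 12 largest falls (non-overlapping groups, average log2 CPM 4 or higher). The 4 lowest p-values of a list are named where described. A further 34 genes (as Nobox, Dnajb4, Sycp2, Dmc1, Piwil2 and Cd200) and Thbs1 were chosen after their values were seen. Of the symbols, 15978 were found in GENCODE M21. Promoters are the first entry per symbol in the RefSeq table.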

Additional observations from a re-analysis of the deposited data

Results flagged for a closer look

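In 156 comparisons of the 4 control libraries (single genes, list sums and the total count), 7 held a library that stood apart from the other 3 by more than the 95% critical value of Dixon's test, and chance flags about 1 in 20 such groups. Control 3 was low for Prrc2a (6.30 CPM, next 15.0), for the summed m6A writer genes (1007 CPM, next 1614) and for the summed ovarian stroma genes (38.8 CPM, next 51.5), and high for the summed heat shock genes (9584 CPM, next 7693). Control 1 was low for Sycp2 (110.6 CPM, next 136) and for the summed m6A readers and erasers (2144 CPM, next 2492). Control 4 was high for the summed DNA methylation genes (5782 CPM, next 4587).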

How the results depend on the processing

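Of 103 named genes that were called, 72 kept their direction and their call in every alternative run and none changed sign in any. Thbs1 and Tet1 were not in this count. Leaving out single libraries gave 2254 to 4243 genes called, 1142 to 2214 higher and 1112 to 2084 lower. DESeq2 called 5253 genes, of which 2821 were lower. The other alternatives stayed within 1.5 times of the main counts, from 3153 genes called with the granulosa covariate to 4540 with the replicate block. With the replicate block 3589 of the main calls were kept in direction. The replicate numbers were not taken to pair the libraries, since knockout library 2 correlated best with control 3 (0.133). The deviations of same-numbered libraries correlated at 0.417, 0.0919 and 0.245. Knockout libraries 1 and 3 each correlated best with the control of the same number, and different-numbered pairs ran from -0.361 to 0.133. Whether same-numbered libraries share a batch was not tested.

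Sign changes were limited to genes that did not pass the main test. With the replicate block Mettl14 had a log2 change of 0.087, and leaving out single libraries gave -0.30 to 0.091, above 0 without knockout library 2 or control 4. With the granulosa covariate the values were -0.26 for Wtap, 0.12 for Ythdc2, 0.78 for Hnrnpa2b1 and -0.46 for Prrc2a. With GC centring they were -0.11 for Rbm15b, 0.030 for Ythdc2, -0.030 for Fto and -0.094 for Prrc2a. Hnrnpa2b1 was at 0.13 without controls 2 and 3. With single libraries left out, Rbm15b ran from -0.049 (without knockout library 3) to 0.47, and Fto from -0.16 to 0.42, below 0 without knockout library 1, control 1 or control 4. The cause of these changes was not tested. Depth of the shallowest library, 6484397 counts, limits genes near 1 CPM. With 3 against 4 libraries most 2-fold changes were missed in the simulation, which changed far fewer genes than were called here and so had a stricter threshold.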

Other observations

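Further stress and embryo lists are described by their counts. Of 18 ATF4 amino acid stress genes 3 were higher (16.7%) and 1 lower (5.56%), against 15.4% and 13.4% of all tested genes. Of 16 immediate early genes 1 was higher (6.25%) and 2 lower (12.5%), and of 7 interferon-stimulated genes 1 was higher (14.3%). Of 21 clustered histone genes 3 were higher (14.3%) and 2 lower (9.52%). Of 10 tested genes of the 2-cell embryo 2 were higher and 2 lower (20% each, against 15.4% and 13.4% of all tested genes), and 6 were higher of 13 tested without knockout library 2 and 5 of 17 with no filter on low counts. With single libraries left out, the rises ran from 2 to 4 for the ATF4 genes, from 0 to 1 for the immediate early and the interferon genes and from 1 to 3 for the histone genes, and the falls from 0 to 2, from 1 to 4, at 0 and from 0 to 2 in the same order. Usp17lc, a deubiquitinase gene with near-identical copies, measured 34.1, 18.7 and 45.5 CPM in the knockout libraries and 0.694, 0, 0.21 and 1.96 CPM in the controls, all knockout libraries above all controls. Tcstv1, from a 2-cell family, measured 16.8, 28.7 and 29.9 CPM in the knockout and 116, 78.7, 62.5 and 90.7 CPM in the controls, with no overlap and a log2 change of -1.80 ± 0.30 (SE).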
